A study of Mus musculus with 2 samples.

Results

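The mitochondrial ribosomal protein genes were the rows of the count table whose symbol begins with Mrpl or Mrps followed by a digit. There were 77 of them among 24081 genes: 48 named for the large subunit (Mrpl) and 29 for the small subunit (Mrps). They were measured by RNA-seq in regulatory T cells (Treg cells: Foxp3-expressing CD4+ T cells, which restrain immune responses), sorted as CD4+ YFP+ cells from lymph nodes and spleen of 5-week-old C57BL/6 mice. The knockout library (KO) came from Foxp3cre/wt mice with both alleles of a gene for protein SUMOylation floxed, and the control library (WT) from Foxp3cre/wt mice with 1 floxed and 1 wild-type allele of it. SUMOylation couples small SUMO proteins onto target proteins, and the series asks whether Treg expansion and function need it. Both groups carried the Cre allele, in which the Foxp3 gene drives Cre recombinase and YFP. Foxp3 is X-linked, so a Foxp3cre/wt female also holds Treg cells without Cre, which the YFP sort leaves out. Each library pooled cells of 5 to 10 mice. Since every group was 1 library, replicates cannot check any difference below, and p-values are not given. Both samples are labelled wild type under genotype, and their titles gave the groups.

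The mitochondrial ribosome (mitoribosome) translates the few messages encoded by mitochondrial DNA, all for subunits of the respiratory chain and the ATP synthase. Its ribosomal RNAs come from mitochondrial DNA, while its proteins are encoded in the nucleus, made in the cytoplasm and imported. Many of these proteins have a counterpart in the bacterial ribosome and the others are specific to mitochondria. T cells raise mitochondrial translation when they are activated, and Treg cells are known for their reliance on mitochondrial respiration.

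Promoters are shown for 5 members that carry matches to factors known for nuclear genes of mitochondrial proteins and that span the range of ratios given below. The windows are RefSeq's on GRCm38.p6, read 5′ to 3′ on the gene's strand, and run from 250 bases before the annotated start to 50 bases after it. Capitals mark the ETS motif CCGGAAGT (ACTTCCGG on the other strand), the NRF1 motif GCATGCGC (GCGCATGC) and the YY1 motif AAGATGGC (GCCATCTT). The NRF1 motif and its reverse overlap in GCGCATGCGC, where each was counted. Mrpl52 lies at chr14:54426659-54426958 (+), Mrps24 at chr11:5707652-5707951 (-), Mrpl33 at chr5:31613701-31614000 (+), Mrps27 at chr13:99344536-99344835 (+) and Mrpl32 at chr13:14612988-14613287 (-). The gene positions given below come from another annotation, GENCODE. Its outermost starts are 5715680 for Mrps24, 31596935 for Mrpl33 and 14613165 for Mrpl32. The RefSeq starts of these genes lie inside those spans, far inside for Mrps24 and Mrpl33.
Mrpl52: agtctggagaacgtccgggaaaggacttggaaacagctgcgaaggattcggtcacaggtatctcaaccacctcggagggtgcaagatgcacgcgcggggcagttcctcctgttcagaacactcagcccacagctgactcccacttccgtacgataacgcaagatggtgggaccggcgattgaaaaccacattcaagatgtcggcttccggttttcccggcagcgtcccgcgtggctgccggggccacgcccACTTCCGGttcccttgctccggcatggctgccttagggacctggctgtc
Mrps24: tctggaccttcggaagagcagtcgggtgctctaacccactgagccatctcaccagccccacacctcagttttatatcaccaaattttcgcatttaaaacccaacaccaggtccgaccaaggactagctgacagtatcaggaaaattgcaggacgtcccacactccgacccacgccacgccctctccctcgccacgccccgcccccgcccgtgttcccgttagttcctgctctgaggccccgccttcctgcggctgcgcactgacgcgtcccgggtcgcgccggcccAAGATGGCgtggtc
Mrpl33: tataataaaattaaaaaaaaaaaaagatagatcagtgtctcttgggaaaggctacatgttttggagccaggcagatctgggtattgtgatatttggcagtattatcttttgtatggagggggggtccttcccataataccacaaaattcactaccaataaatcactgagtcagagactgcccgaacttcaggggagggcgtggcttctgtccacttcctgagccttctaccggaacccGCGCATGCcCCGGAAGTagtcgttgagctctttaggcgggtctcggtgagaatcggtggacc
Mrps27: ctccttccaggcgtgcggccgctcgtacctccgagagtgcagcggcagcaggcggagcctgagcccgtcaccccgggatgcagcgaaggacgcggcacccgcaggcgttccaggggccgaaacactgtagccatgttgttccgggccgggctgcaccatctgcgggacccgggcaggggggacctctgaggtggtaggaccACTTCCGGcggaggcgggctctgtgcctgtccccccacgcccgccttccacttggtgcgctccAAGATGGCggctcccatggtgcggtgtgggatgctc
Mrpl32: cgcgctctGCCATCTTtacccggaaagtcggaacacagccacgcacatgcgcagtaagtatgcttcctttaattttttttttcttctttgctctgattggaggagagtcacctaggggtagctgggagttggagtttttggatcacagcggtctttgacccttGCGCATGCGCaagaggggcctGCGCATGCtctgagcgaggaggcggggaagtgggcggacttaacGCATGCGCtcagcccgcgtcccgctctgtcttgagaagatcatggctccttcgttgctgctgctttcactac

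Of the 77 members, 68 had a promoter in the RefSeq table. An ETS match was held by 12 of them (17.6%), against 10.2% of the 8710 expressed genes with a promoter. A YY1 match was also held by 12 (17.6%, against 5.87%), and an NRF1 match by 8 (11.8%, against 6.45%). At least 1 of the 3 motifs was found for 29 members (42.6%) and for 20.8% of expressed genes. Over all 32851 promoters of the table, 3.89% held the ETS motif, 2.75% the YY1 motif and 2.71% the NRF1 motif. The YY1 matches of members lay mostly just downstream of the start: 8 of 12 began after it, all 8 in the direction of the gene, as in Mrps24 and Mrps27. That position and direction was seen for 43.7% of the 556 YY1 matches of expressed genes. A match describes letters in these windows and was not tested for binding. The log2 ratio described below (KO over WT) had a median of 0.06 for the 29 members with a match to any motif and of 0.00 for the 39 without. By motif it was 0.17 with an ETS match and 0.00 without, 0.11 with a YY1 match and 0.00 without, and -0.03 with an NRF1 match and 0.04 without. These differences were not tested.

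Reads assigned to genes numbered 23789264 in the KO library and 11662867 in the WT library, so the KO values are the more precise. The 6 Treg markers measured were plentiful in both libraries, with 30579 Foxp3 reads in KO and 8540 in WT, and 54375 Cd4 reads in KO and 23224 in WT. Summed, they made 5845 counts per 1000000 gene reads (CPM) in KO and 4869 in WT. By the 1.5-fold rule given below 1 of the 6 was higher in KO, Foxp3, and 2 were lower. The lower genes were Ikzf2, with 4706 reads in KO and 3859 in WT (1.59-fold lower), and Ctla4, with 2056 in KO and 1712 in WT (1.61-fold lower). Of all expressed genes 7.43% were called higher and 5.51% lower. With the trend of the ratio on GC content and exon length removed, as described below, 1 of the 6 was higher and none was lower. Markers of B, CD8 T and NK cells summed to far less than the Treg markers. The 4 B cell markers summed to 73.4 CPM in KO and 82.5 in WT, and the CD8 pair to 40.4 and 34.5. For the 3 NK cell markers the sums were 7.15 and 6.52. The 3 monocyte and macrophage markers measured were more plentiful than these, and summed to 354 CPM in KO and 403 in WT. The 4 erythroid markers summed to 5.42 CPM in KO and 14.7 in WT, and among them the haemoglobin gene Hbb-bs had 0 reads in both. The neutrophil marker S100a8 had 19 reads in KO and 4 in WT. The 4 proliferation markers summed to 351 CPM in KO and 357 in WT. The part of these cells in the ratios below was not tested, and in a bulk sample fewer cells of a type and less RNA per cell cannot be told apart.

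The mitoribosomal genes lay close together in KO and WT. Every member passed the filter on low counts, a mean of at least 20 reads over both libraries, which 10899 genes passed (called expressed). Member counts ran from 88 to 1380 reads in KO, with a median of 348, and from 23 to 685 in WT, with a median of 175. As a whole the members took 35121 reads in KO, or 0.148% of gene reads (Clopper-Pearson interval 0.146 to 0.149), and 17699 reads in WT, or 0.152% (0.150 to 0.154). Counts were scaled with edgeR's TMM factors, and the summed fold of KO over WT was then 1.03 (1.01 to 1.05). The summed fold over all expressed genes was 1.055 (1.054 to 1.056). The unscaled shares put the members' sum slightly lower in KO and the scaled fold slightly higher, so the sign of this small difference rests on the scaling. All intervals here are exact, at 95%, and cover counting error only.

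Each gene was given a log2 ratio of KO over WT, with a pseudocount of 1. Its median over the 77 members was 0.02, beside 0.01 for all expressed genes, and 41 members lay above 0 (51.4% of all expressed genes did). The SD of the ratio over members was 0.33, beside 0.46 over all expressed genes and 0.45 over the 6080 genes in the members' range of mean counts. Genes whose ratio reached 1.5-fold were called, as higher or as lower in KO. By that rule 8 members (10.4%) were higher in KO, where the background was 7.43% of expressed genes. None was lower, where the background was 5.51%. The counting interval of the fold lay wholly above 1 for 20 members (26%; 29.1% of expressed genes) and wholly below 1 for 10 (13%; 25.6%). For the remaining 47 members no difference was detectable at this depth. Within the members' range of mean counts, 23.3% of genes had an interval above 1 and 24.1% below 1.

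**Figure D1:**
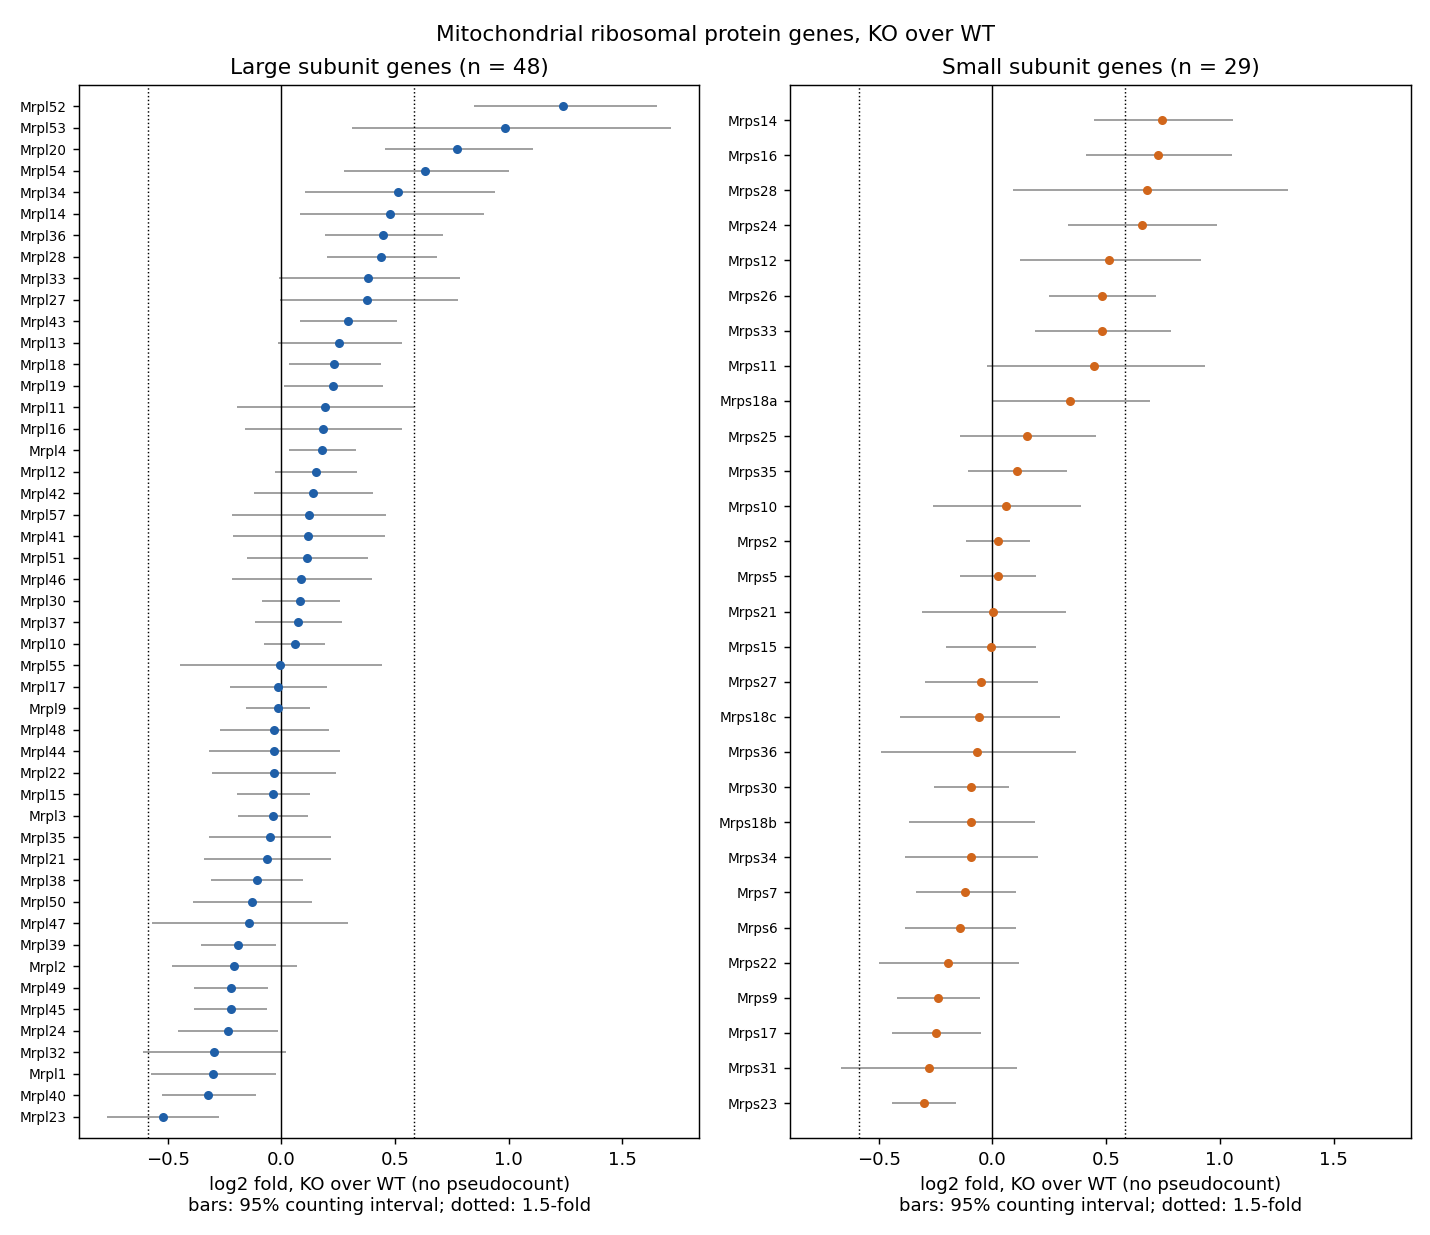
Fold of KO over WT for each mitochondrial ribosomal protein gene on a log2 scale, large subunit on the left and small subunit on the right, with 95% counting intervals (1 library per group). Of the 77 genes, 8 lie right of the 1.5-fold line and none lies left of it.

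The 4 large subunit genes past 1.5-fold were Mrpl52, Mrpl53, Mrpl20 and Mrpl54. Mrpl52, a protein specific to mitochondria (chromosome 14, 54426909 to 54429756, + strand), had 297 reads in KO and 65 in WT, which is 12.5 CPM in KO and 5.57 in WT. It was 2.36-fold higher in KO (1.80 to 3.14), the largest ratio among the members and the one member in the 100 highest ratios of the 10899 expressed genes. Mrpl53, also specific to mitochondria (chromosome 6, 83109040 to 83109939, + strand), had 88 reads in KO and 23 in WT, the fewest of any member, and was 1.98-fold higher with a wide interval of 1.24 to 3.28. Exons of Mrpl53 overlap those of Gm42688 on the same strand and of Ccdc142os on the opposite strand, so its count is less certain. Mrpl20, the counterpart of bacterial L20, an RNA-binding protein of early ribosome assembly (chromosome 4, 155802878 to 155809975, + strand), had 344 reads in KO and 104 in WT, and was 1.71-fold higher (1.37 to 2.15). Mrpl54, specific to mitochondria (chromosome 10, 81264713 to 81266934, - strand), had 258 reads in KO and 86 in WT, and was 1.55-fold higher (1.21 to 2.0).

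The 4 small subunit genes past 1.5-fold all have a bacterial counterpart. Mrps14, a protein of the subunit's head (chromosome 1, 160195215 to 160202170, + strand), had 383 reads in KO and 118 in WT, and was 1.68-fold higher (1.36 to 2.08). Mrps16, whose loss in humans causes a deficiency of oxidative phosphorylation (chromosome 14, 20389304 to 20393634, - strand), had 349 reads in KO and 109 in WT, and was 1.66-fold higher (1.33 to 2.07). Mrps28 (chromosome 3, 8802146 to 8923918, - strand) had 99 reads in KO and 32 in WT, and was 1.60-fold higher, with an interval of 1.06 to 2.46 that reaches close to 1. Mrps24, the counterpart of bacterial S3 at the entry of the mRNA channel (chromosome 11, 5703983 to 5715680, - strand), had 320 reads in KO and 105 in WT, and was 1.58-fold higher (1.26 to 1.98). The lower bounds of the 8 intervals ran from 1.06 for Mrps28 to 1.80 for Mrpl52, and Mrpl52 alone had its whole interval past 1.5-fold.

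At the other end the ratios were smaller. The lowest was that of Mrpl23, which sits where the new protein leaves the ribosome (chromosome 7, 142532686 to 142540747, + strand). It had 325 reads in KO and 241 in WT, which is 13.7 CPM in KO and 20.7 in WT, and was 1.43-fold lower in KO (1.21 to 1.70). The next was Mrpl40, of the central protuberance, with 494 reads in KO and 319 in WT, 1.25-fold lower (1.08 to 1.44). Mrps23, a protein specific to mitochondria, had 1046 reads in KO and 667 in WT and was 1.23-fold lower with a narrow interval (1.12 to 1.36). The 5 members after these were Mrpl1 (286 in KO and 182 in WT), Mrpl32 (222 and 141), Mrps31 (148 and 93), Mrps17 (570 and 350) and Mrps9 (659 and 402). They were 1.18-fold to 1.23-fold lower, and the intervals of Mrpl32 and Mrps31 held 1. None of these 8 reached 1.5-fold.

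The large and small subunits had similar values. The median log2 ratio was 0.08 over the 48 large subunit genes and 0.00 over the 29 small subunit genes, and the means were 0.12 for each. Of the large subunit 4 genes were called higher (8.33%) and of the small subunit 4 (13.8%), where the background was 7.43%. None was lower in either (background 5.51%). With the trend on GC content and exon length removed, as described below, 3 genes of each subunit were higher (background 4.66%). In each subunit 1 gene was then lower (background 5.2%). The middle range between quartiles ran from -0.07 to 0.24 for the large subunit and from -0.10 to 0.44 for the small. Summed reads gave folds of 1.03 (1.01 to 1.05) for the large subunit and 1.02 (0.988 to 1.05) for the small, intervals that overlap almost wholly. All expressed genes gave 1.055. Large subunit reads stood to small subunit reads as 1.85 to 1 in KO and as 1.83 to 1 in WT. Genes are not replicates and no test was run between the subunits. In the mammalian mitoribosome the proteins of Mrps18a and Mrps30 belong to the large subunit despite their names. Counting them there left both medians at 0.08 and 0.00. Mrps36, which the rule also takes, is now known as a component of the alpha-ketoglutarate dehydrogenase complex. It had 133 reads in KO and 72 in WT, and its fold of 0.955 was within counting error (0.712 to 1.29).

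Levels per length gave a similar picture. They were computed as TPM (transcripts, scaled to sum to 1000000) from the counts and the exon length of each gene, and ran from 4.66 to 114 TPM in KO and from 5.39 to 116 TPM in WT over the members. The median member level was 31.5 TPM in KO and 28 in WT, near the median of all expressed genes (28.2 in KO and 29.1 in WT). Large subunit genes had a median level of 37.1 TPM in KO and 32.9 in WT, and small subunit genes 25.7 in KO and 25.5 in WT. The 6 most abundant members in KO were Mrpl4, Mrpl30, Mrpl10, Mrps23, Mrps15 and Mrpl52. Mrpl4, the counterpart of a bacterial protein that lines the exit tunnel, stood at 114 TPM in KO and 106 in WT, and Mrpl30 at 108 in KO and 107 in WT. Mrps23, at 89.8 TPM in KO and 116 in WT, was the fourth in KO and the most abundant in WT. Mrpl52 stood at 74.1 TPM in KO, rank 6 of 77, and at 32.9 in WT, rank 35. The 3 least abundant were the same genes in both libraries: Mrpl47 (4.66 TPM in KO and 5.39 in WT), Mrps25 (6.03 and 5.69) and Mrpl11 (7.23 and 6.64). Their exon lengths, from 3069 to 6073 bases, are long for the family, and extra annotated exons lower a level per length. Across the 77 genes the Spearman correlation of the scaled counts of the libraries was 0.942.

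**Figure D2:**
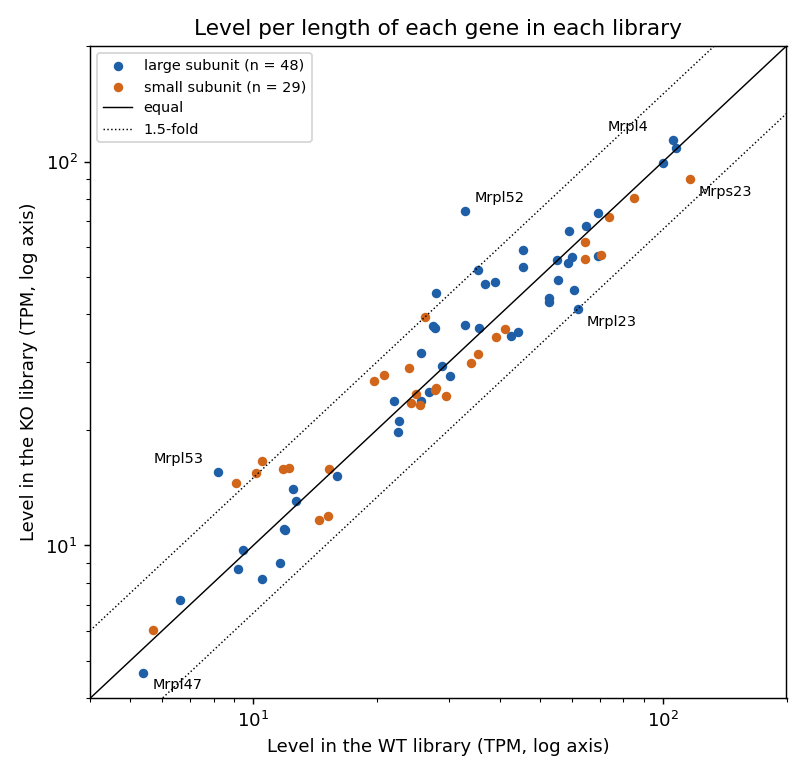
Level of each mitochondrial ribosomal protein gene in the KO library (vertical) against the WT library (horizontal), in TPM on log axes, with the line of equal levels and the 1.5-fold lines. Mrpl52 lies farthest above the line of equal levels (74.1 TPM in KO, 32.9 in WT), and Mrpl23 lies near the lower 1.5-fold line.

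By place in the ribosome, small groups of members lay on either side of 0, and 1 gene in them passed 1.5-fold. These groups hold few genes, were chosen with earlier results of these data known, and were not tested against each other. They leave out other members past 1.5-fold, such as Mrpl53 and Mrpl54. The 3 genes listed for the stalk, which recruits translation factors to the large subunit, all had ratios above 0 but under 1.5-fold. Mrpl12, the stalk protein that contacts the factors, had 791 reads in KO and 368 in WT (1.11-fold, 0.981 to 1.26). Mrpl10 had 1380 reads in KO and 685 in WT (1.04-fold, 0.95 to 1.14), and Mrpl11 had 181 and 82 (1.14-fold, 0.875 to 1.5). With the GC and length trend removed Mrpl12 came to -0.01, and with total-count scaling Mrpl10 came to -0.02. The 3 intervals all held 1, so at this depth no difference was detectable. All 6 tunnel exit genes had ratios below 0, where 48.6% of expressed genes did, with a median of -0.18 and a summed fold of 0.870 (0.817 to 0.927). With the GC and length trend removed 5 of the 6 lay below 0 (median -0.12) and Mrpl17 stood at 0.07. Besides Mrpl23, the intervals of Mrpl45, which tethers the ribosome to the inner membrane (855 reads in KO and 516 in WT, 1.17-fold lower), and Mrpl24 (457 and 278, 1.18-fold lower) lay below 1. Those of Mrpl17, Mrpl22 and Mrpl47 held 1.

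The 7 central protuberance genes went both ways, with a median of -0.01 and a summed fold of 0.994 (0.932 to 1.06). Mrpl27 had 196 reads in KO and 78 in WT (1.30-fold, 0.995 to 1.71), Mrpl18 had 657 and 289 (1.18-fold, 1.02 to 1.36), and Mrpl40 was lower as given above. Mrpl38, Mrpl46, Mrpl48 and Mrpl55 had log2 ratios from -0.11 to 0.09. The 5 genes of the mRNA path and decoding site had a median of 0.44, or 0.18 with the GC and length trend removed, and a summed fold of 1.10 (1.02 to 1.19). Of them Mrps24 was past 1.5-fold, and Mrps12, the counterpart of the bacterial decoding site protein S12, had 204 reads in KO and 74 in WT (1.43-fold, 1.09 to 1.89). Mrps11 had 137 reads in KO and 52 in WT (1.36-fold, 0.983 to 1.91), Mrps5 had 861 and 438 (1.02-fold) and Mrps7 had 479 and 269 (1.09-fold lower, 0.932 to 1.26).

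Genes with a bacterial counterpart and genes specific to mitochondria overlapped in range. In the large subunit the 30 genes with a counterpart had a median log2 ratio of 0.07 with 1 called higher, and the 18 specific ones a median of 0.08 with 3 called higher. In the small subunit the 16 genes with a counterpart had a median of 0.02 with 4 called higher, and the 10 specific ones a median of -0.07 with none. Of all expressed genes 7.43% were called higher. With the GC and length trend removed 2 of these 16 and 1 of these 10 were higher (background 4.66%), and 1 of the 10 was lower (background 5.2%). In the large subunit 1 of the 30 and 2 of the 18 were then higher, and 1 of the 30 was lower. The classes were not tested against each other. The Mrps18 genes are a set of 3 related to bacterial S18. Mrps18c was counted here as the counterpart of S18, Mrps18b as specific to mitochondria, and Mrps18a in neither class. Mrps18a had 245 reads in KO and 100 in WT (1.27-fold, 1.00 to 1.61), Mrps18b 308 in KO and 170 in WT (0.937-fold, 0.774 to 1.14), and Mrps18c 195 in KO and 105 in WT (0.960-fold, 0.754 to 1.23). Their intervals overlap.

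Short genes held most of the higher ratios. Of the 26 members with the shortest exons (478 to 1056 bases), 6 were called higher and the median log2 ratio was 0.24. The middle 25 (1068 to 1849 bases) had no call and a median of 0.06, and the longest 26 (1962 to 7605 bases) had 2 calls, Mrps14 and Mrps16, and a median of -0.02. Among all expressed genes the shortest also had higher ratios: the 466 genes in the length range of the shortest members had a median of 0.24 with 22.3% called higher, and the 7728 in the range of the longest had -0.01 with 6.26%. Calls also sat among members with few reads: 5 of the 8 were in the 26 members with the lowest mean counts (55.5 to 212.5) and none in the 26 with the highest. Over all expressed genes in the same ranges of mean counts, 10.9% were called higher in the lowest, 5.60% in the middle and 3.97% in the highest. Among large subunit genes the Spearman correlation of the ratio with exon length was -0.54 (n = 48 genes of the same 2 libraries), and among small subunit genes 0.04 (n = 29). Over all 77 it was -0.32, and over all 10827 expressed genes with a length it was -0.04. GC content, taken from each gene's longest transcript, went with the ratio across all expressed genes (Spearman correlation 0.43, n = 10827), and among members less so (0.26, n = 77).

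With the trend of the ratio on GC content and exon length taken out by a smooth fit, the member median was 0.03 and that of all expressed genes 0.02. By the same rule 6 members were then higher (background 4.66%) and 2 lower (background 5.2%). Of the 8 higher calls 5 were kept, Mrps14 (0.97), Mrps16 (0.85), Mrpl20 (0.63), Mrpl53 (0.63) and Mrpl52 (0.59, against a threshold of 0.58). Mrps24 came to 0.43, Mrps28 to 0.36 and Mrpl54 to -0.07, all under 1.5-fold, while Mrps33 came past it at 0.67 (0.48 before). The lower genes were Mrps34, at -0.61 where it had been -0.10, and Mrpl23, also at -0.61. After this fit the Spearman correlation of the ratio among members was -0.26 with GC content and 0.20 with exon length. Over all expressed genes it was 0.00 and 0.02. Among small subunit genes the correlation with exon length was then 0.42. The fit over all genes thus left the members with relations of the opposite sign, which limits the kept, lost and new calls.

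**Figure D3:**
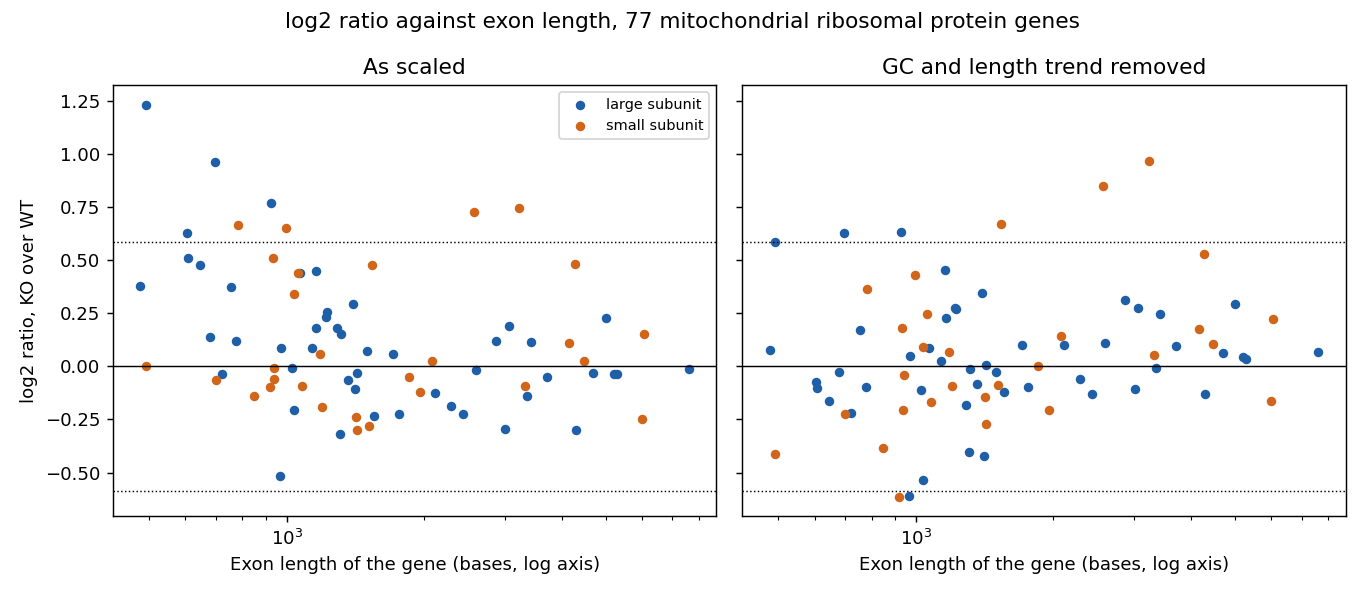
log2 ratio of KO over WT (vertical) against exon length in bases (horizontal, log axis) for the 77 genes, as scaled on the left and with the trend on GC content and length removed on the right, with dotted lines at 1.5-fold. On the left 6 of the 8 genes past 1.5-fold are among the 26 shortest, and on the right Mrps14 and Mrps16 are the highest.

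Genes that act with the mitoribosome gave mixed values. Of 6 mitoribosomal proteins that carry other symbols, 2 passed 1.5-fold, both higher in KO (33.3%, where the background was 7.43%). None was lower (background 5.51%), and the median log2 ratio was 0.04. The counting interval lay wholly above 1 for 3 of the 6 and wholly below 1 for 3. Their summed reads gave a fold of 0.892 (0.852 to 0.933), lower in KO. Gadd45gip1, a large subunit protein, had 276 reads in KO and 92 in WT (1.55-fold higher, 1.22 to 1.99), and Chchd1, of the small subunit, 129 in KO and 44 in WT (1.52-fold higher, 1.07 to 2.19). Neither stayed past 1.5-fold once the GC and length trend was removed (0.55 and 0.42). Dap3, the GTP-binding protein of the small subunit, had 2059 reads in KO and 1313 in WT and was 1.23-fold lower (1.15 to 1.32).

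Of the 11 mitochondrial translation factors none passed 1.5-fold in either direction, and 9 had a ratio below 0 (median -0.14), where 48.6% of expressed genes did. With the GC and length trend removed 6 of the 11 lay below 0 (47.2% of expressed genes; median -0.08). The initiation factor Mtif3 had 219 reads in KO and 161 in WT (1.42-fold lower, 1.15 to 1.75). The recycling factor Mrrf had 293 reads in KO and 188 in WT (1.24-fold lower, 1.03 to 1.49), and the release factor Mtrf1l 271 in KO and 170 in WT (1.21-fold lower, 0.995 to 1.48). The elongation factor Tufm, at 134 TPM in KO and 146 in WT the most abundant of them, was at 0.962-fold (0.892 to 1.04). Of the 23 genes of mitoribosome assembly and rRNA modification 17 had a ratio below 0 (median -0.09). With the GC and length trend removed 16 of the 23 lay below 0 (median -0.11). Their log2 ratios ran from -0.40 for Mterf4 to 0.41 for Rbfa, all within 1.5-fold. All 10 genes of mitochondrial DNA transcription and mRNA stability also lay within 1.5-fold (median -0.01). Their ratios ran from -0.34 for Tfb2m, a transcription factor, to 0.36 for Polg2, a subunit of the DNA polymerase. Of all expressed genes 7.43% were called higher and 5.51% lower.

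Of 8 regulators of mitochondrial biogenesis 7 passed the filter. By the 1.5-fold rule 2 of the 7 were higher (28.6%, where the background was 7.43%) and none was lower (background 5.51%). With the GC and length trend removed 1 of the 7 was higher (background 4.66%). Nrf1, Gabpa and Yy1, which bind the promoter motifs above, had log2 ratios of -0.04, -0.07 and -0.09. Those of Pprc1 and Esrra were 0.36 and -0.13. Myc, which drives growth and ribosome production, had 5204 reads in KO and 1559 in WT and was 1.73-fold higher (1.63 to 1.83). With the GC and length trend removed Myc stood at 0.78. Ppargc1b, a coactivator of mitochondrial genes, had 293 reads in KO and 88 in WT and was 1.72-fold higher (1.35 to 2.21), but under 1.5-fold with the GC and length trend removed (0.50).

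The subunits of the respiratory chain, which the mitoribosome serves, and the ribosomal proteins of the cytoplasm had higher medians than the members. Among 74 nuclear genes of the respiratory chain and ATP synthase, 25 were at least 1.5-fold higher and 2 lower (33.8% and 2.70%, where the background was 7.43% and 5.51%), with a median of 0.35. Among 78 cytoplasmic ribosomal protein genes 15 were higher and 2 lower (19.2% and 2.56%), with a median of 0.26. Their reads summed over all listed genes differed less, with folds of 1.04 (1.03 to 1.05) for the respiratory chain and 1.07 (1.07 to 1.08) for the cytoplasmic ribosome. The summed fold was 1.03 for the members and 1.055 (1.054 to 1.056) for all expressed genes, so 1 is not the background of these sums. Unscaled, the respiratory chain took 5537 CPM in KO and 5616 in WT, and the cytoplasmic ribosome 54788 and 53826. Genes of both lists are shorter, with median exon lengths of 1021 and 976 bases against 1363 for the members. With the GC and length trend removed 12 respiratory chain genes of 73 were higher and 2 lower, and 9 cytoplasmic ribosomal protein genes were higher and 3 lower (background 4.66% and 5.2%). The medians were then 0.21 for the respiratory chain and 0.13 for cytoplasmic ribosomal proteins, beside 0.03 for the members. The highest ratios of these lists were those of Ndufa1, a subunit of complex I (475 reads in KO and 94 in WT), and Rpl39, of the large cytoplasmic subunit (3669 and 748). With 1 library per group the difference between the lists was not tested. A search of the gene symbols found no genes of mitochondrial DNA, so none was analysed here.

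**Figure D4:**
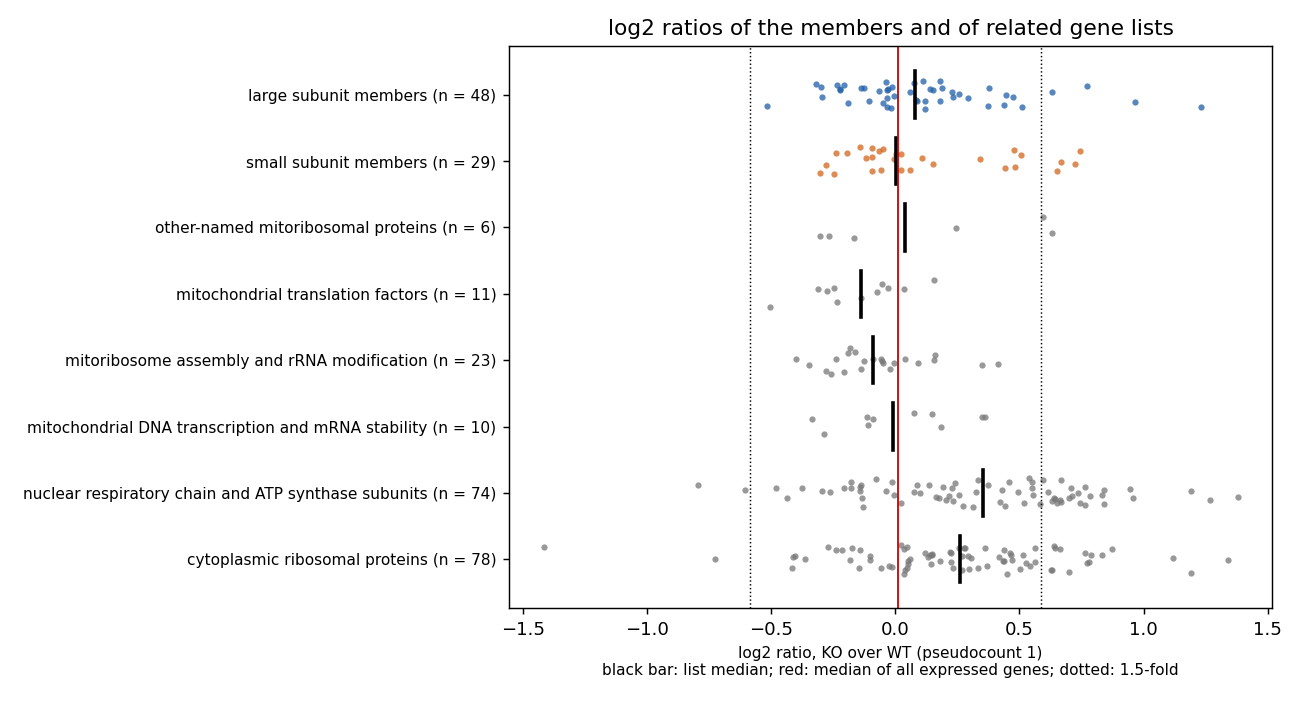
log2 ratio of KO over WT for each gene of the 2 mitoribosomal subunits and of 6 related lists, with the list median as a black bar, the median of all expressed genes in red and dotted lines at 1.5-fold. The subunit medians (0.08 and 0.00) lie near the median of all genes, and those of the respiratory chain (0.35) and cytoplasmic ribosomal proteins (0.26) lie to its right.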

How the data were processed

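The deposited file holds raw counts of reads for every gene in the KO and WT libraries. TopHat2 2.0.3, HTSeq and the build mm10 are named in the submitters' processing notes, while the annotation and strand setting were not given in the sources used here. Reads not assigned to a single gene (23.4% of entries in KO and 23.4% in WT) were left out. Most of them align to several places (15.0% of entries in KO and 15.6% in WT). The others fell in no annotated gene (6.81% and 6.26%) or were ambiguous between genes (1.57% and 1.53%). HTSeq's table lists reads that align to several places apart, so near-identical genes are undercounted.

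TMM factors came from edgeR 4.0.16 and alternative size factors from DESeq2 1.42.0 (R 4.3.3). No count model was fitted, since there was 1 library per group. Folds carry no pseudocount and the log2 ratios and calls a pseudocount of 1. Intervals are conditional binomial ones from raw counts and treat reads as independent. Exon length (union of exons), GC content (longest transcript), positions and overlaps came from GENCODE M21 (GRCm38), which matched 23637 of 24081 symbols. The trend was fitted with mgcv 1.9.3 over 10827 expressed genes. Ratio, interval and trend were checked on simulated counts.

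All members at 1.5-fold or more, the 8 highest and 8 lowest ratios, the extremes of level and the structural groups were named. The members and lists were chosen with earlier results of these data known. The targeted gene is not reported here.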

Additional observations from a re-analysis of the deposited data

How the results depend on the processing

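No paired analysis was possible because each group had 1 library. Total-count scaling put the member median at -0.0531, the small subunit median at -0.0738, the summed log2 ratio at -0.0397 and the large subunit median at 0.0023, and lowered the median of all genes to -0.06. It left 6 higher calls, without Mrpl54 and Mrps24, and made 1 lower, Mrpl23. With the GC and length trend removed the large subunit median was 0.0303, the small subunit median 0.0550, the large minus small difference -0.0247 (0.08 before), and 2 members were lower. Without the 25 members whose exons overlap another gene, the large subunit median was -0.0069 and the difference -0.0309. The sign of the difference between the subunits therefore changed with 2 of 8 alternatives. The other alternatives were DESeq2 size factors, a pseudocount of 5, no low-count filter, a mean of at least 100 reads and assignment by structure. They changed no median by more than the counting error of the summed reads of the same genes. They kept every higher call among the members they left in. The small subunit median, 0.0029 before, was -0.0041 with DESeq2 size factors and -0.0064 with a mean of at least 100 reads. The summed ratio has no value with the trend removed. Counting error limits single genes most where reads are few, as for Mrpl53 and Mrps28, and the spread between mice was not measured.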

Other observations

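Among the 77 members, 18 (23.4%) had a protein-coding gene that starts within 1000 bases upstream on the opposite strand, against 11% of 10602 expressed protein-coding genes. Mrps12 shares its start region with Sars2, the mitochondrial seryl-tRNA synthetase, 172 bases away, and both were above 0 (log2 ratios 0.51 and 0.39). Mrpl54 lies 26 bases from Apba3 (0.63 and 0.43). Other pairs parted: Mrpl49 was at -0.22 and Fau, which encodes a cytoplasmic ribosomal protein 59 bases away, at 0.51, and Mrpl32 was at -0.29 and Psma2, a proteasome subunit 75 bases away, at 0.55. Mrpl30 was at 0.08 and Mitd1, 66 bases away, at -0.58. These pairs were picked after their values were seen.

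The members lie on 17 chromosomes, with 10 on chromosome 11 and 8 on chromosome 17.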
